A study of Mus musculus with 36 samples.

Results

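The 6 genes described here are Spo11, Mei1, Meiob, Tex11, Mlh3 and Rdm1, measured in mouse testis on 36 Illumina bead arrays of 45281 probes from 24 animals. The first 5 were chosen as genes of meiotic recombination, with earlier results of these data known. Rdm1 was chosen by its measured values, because it rose in each mutant group. They carry 10 probes in all, and each of the 6 genes was among the 11529 genes tested. The animals were juvenile males labelled C57BL/6 with altered alleles of Brdt, which encodes the BET protein of male germ cells, a reader of acetylated histones. Animals of the knockout line were taken at 17 days post partum (dpp) as 4 KO-/- and 6 KO+/- animals, and at 20 dpp as 4 KO-/- and 3 KO+/+ animals. The line without the first bromodomain (BD1) was sampled at 20 dpp as 3 BD1-/- animals and 4 controls, of which animals 219 and 191 were BD1+/- and animals 195 and 196 were BD1+/+. Controls of the knockout line therefore carried 1 altered allele at 17 dpp and none at 20 dpp. In comparisons of these controls between the ages, age and genotype change together and cannot be told apart. The labels name no treatment, and the RNA was that of whole testis.

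Meiotic recombination starts when the SPO11 complex cuts both DNA strands in early prophase. The broken ends are coated by single-strand binding proteins and invade the homologous chromosome, and a minority of these joints is turned into crossovers that hold the homologues together. In the first wave of spermatogenesis of the juvenile mouse, spermatocytes pass through this prophase together, and round spermatids follow them. On the X chromosome most genes are silenced in pachytene spermatocytes, and Tex11 lies there. The other members lie on chromosomes 2 (Spo11), 15 (Mei1), 17 (Meiob), 12 (Mlh3) and 11 (Rdm1).

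Before normalization the array medians lay between 118 and 153 units, and 17379 to 20016 probes were detected per array. Brdt averaged 9.00 (SD 0.37, n = 6) on the log2 scale in the controls at 17 dpp and 6.10 (SD 0.64, n = 4) in the knockouts. At 20 dpp it averaged 11.5 (SD 0.09, n = 3) in wild types, 7.82 (SD 0.52, n = 4) in knockouts, 11.4 (SD 0.43, n = 4) in controls of the BD1 line and 10.3 (SD 0.16, n = 3) in BD1-/- animals. All 3 wild types and knockouts 148 and 152 at 20 dpp share litter 1 of the labels, and knockouts 139 and 140 come from litter 2. Knockout animal 122 at 17 dpp had the lightest testis, 0.009 g against 0.011 g to 0.019 g in the other animals of that age.

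Values below are log2 signals after background correction and quantile normalization, averaged over the arrays of an animal, so that n counts animals. Changes are log2 differences of group means with their standard error (SE), tested with limma over all genes, and a gene was called at a Benjamini-Hochberg adjusted p under 0.05. In whole testis, fewer cells of a type and less RNA per cell cannot be told apart. At 20 dpp in the knockout, Meiob and Tex11 rose and Spo11 fell, whereas Mei1 and Mlh3 did not pass the test. Neither the knockout of 17 dpp nor the BD1 deletion had a call among the 5 members other than Rdm1. From 17 to 20 dpp in the controls, Mei1, Meiob, Tex11 and Rdm1 fell, and the controls used for Rdm1 also entered its choice. The Meiob calls in the knockout and with age use wild types that were low for Meiob against every other group. With the controls of the BD1 line in their place, Meiob differed by 0.08 in the knockout and by 0.04 with age, neither called.

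**Figure D1:**
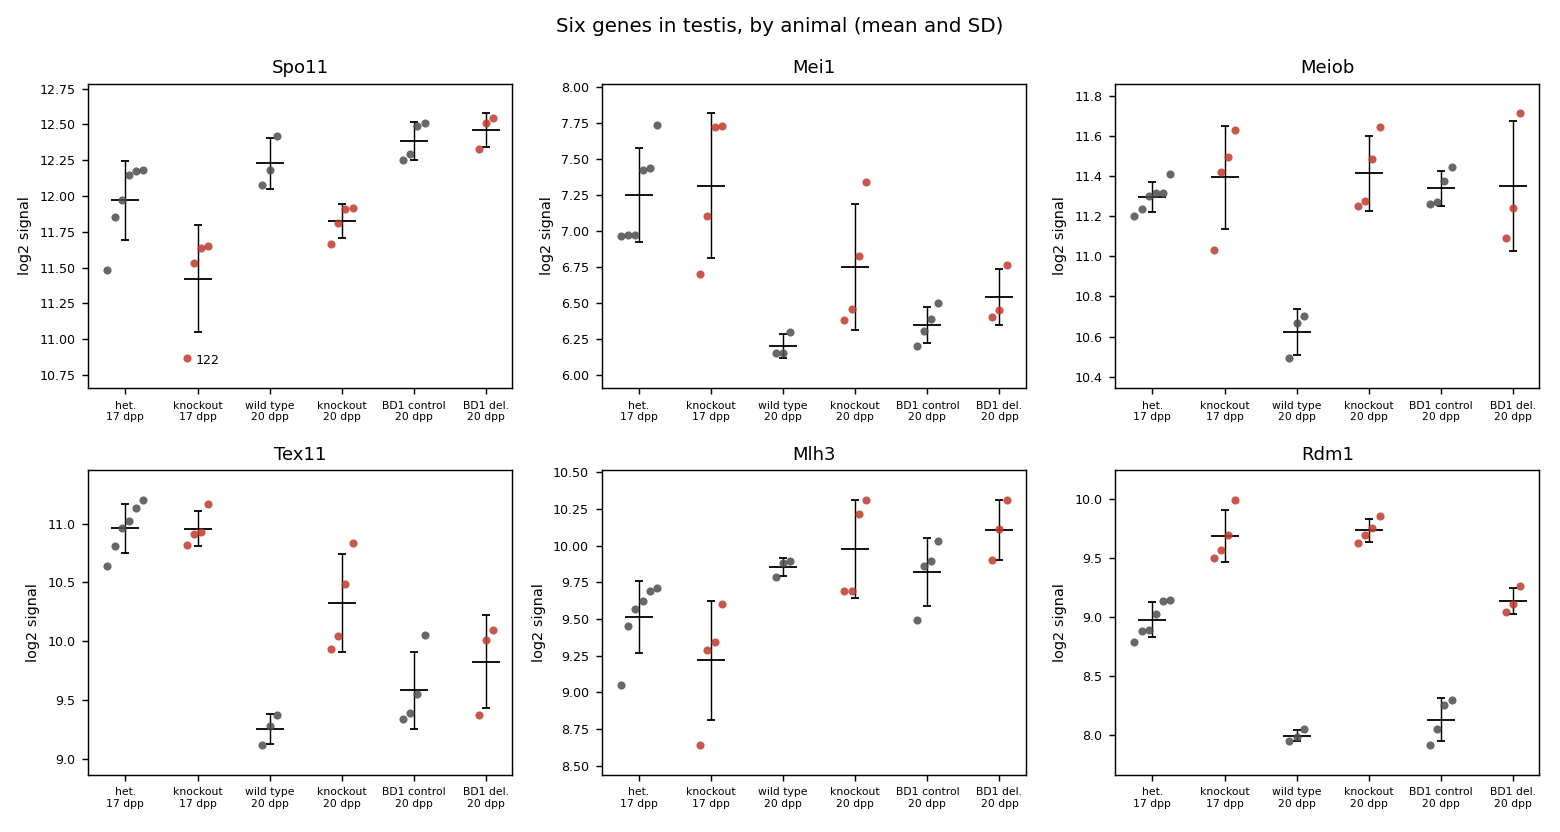
Log2 signal of each gene (vertical axis) in each animal (points) by group (horizontal axis), with controls in grey, mutants in red, and the mean and SD of each group in black. Meiob in the 3 wild types at 20 dpp lies between 10.49 and 10.70, under all other animals, and Rdm1 in each mutant group lies above its controls.

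Spo11 encodes the catalytic subunit that cuts the DNA. On its brighter probe the heterozygous animals at 17 dpp ranged from 11.48 to 12.18 with a median of 12.06. The 4 knockouts of that age stood at 11.64, 11.65, 10.87 and 11.53. Animal 122 was the lowest, and the other knockouts lay above the lowest heterozygous animal, so the groups overlapped. The difference of -0.55 ± 0.14 (SE) missed the threshold, with an adjusted p of 0.0522. Without animal 122 it was -0.36 with an adjusted p of 0.245 in limma. Without any 1 of animals 72, 73 and 121 the gene was called (adjusted p from 0.00505 to 0.0464 in limma). With litter as a block it was -0.63 with an adjusted p of 6.3e-05.

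At 20 dpp the wild types had Spo11 signals of 12.08, 12.42 and 12.18, and the knockouts 11.67, 11.81, 11.91 and 11.92. All 4 knockouts lay below all wild types, and Spo11 fell by 0.40 ± 0.17 (SE), with an adjusted p of 0.0417 in limma. The call ended without any 1 of animals 139, 140, 149 and 157 (adjusted p from 0.0702 to 0.179). All wild types are of litter 1, and within litter 1 alone the change was -0.31 and not called (adjusted p 0.218 in limma). Against the controls of the BD1 line the same knockouts were lower by a log2 change of -0.56, with an adjusted p of 0.0037 in limma. In the BD1 deletion the 3 animals read 12.51, 12.33 and 12.55 and the controls 12.51, 12.25, 12.29 and 12.49. The groups overlapped, and the difference was 0.08 with a 95% interval from -0.27 to 0.42 (adjusted p 0.767 in limma). Controls at 20 against 17 dpp differed by 0.26 ± 0.15 (SE), with an adjusted p of 0.136 in limma. With the controls of the BD1 line in place of the wild types, that difference was 0.42, with an adjusted p of 0.0112.

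A dimmer Spo11 probe, ILMN_2923048, gave another pattern. Animals 195 (BD1+/+) and 197 (BD1-/-), both of litter 5, read 10.05 and 10.12. The other 22 animals lay between 5.47 and 7.04, and animal 196 of the same litter read 6.77. Both arrays of each animal gave the same picture, with 9.96 and 10.13 for animal 195 and 10.14 and 10.09 for animal 197. On the brighter probe these animals stood within the range of the other animals at 20 dpp, at 12.29 and 12.33. No comparison was called on the dimmer probe, and its BD1 difference was 0.39 with a 95% interval from -0.96 to 1.75. This probe was detected on 4 of 6 arrays of knockouts at 17 dpp. At 20 dpp it was detected on 5 of 6 arrays of wild types and on 5 of 6 of knockouts. The remaining Spo11 probe was detected on 0 arrays and was not tested.

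**Figure D2:**
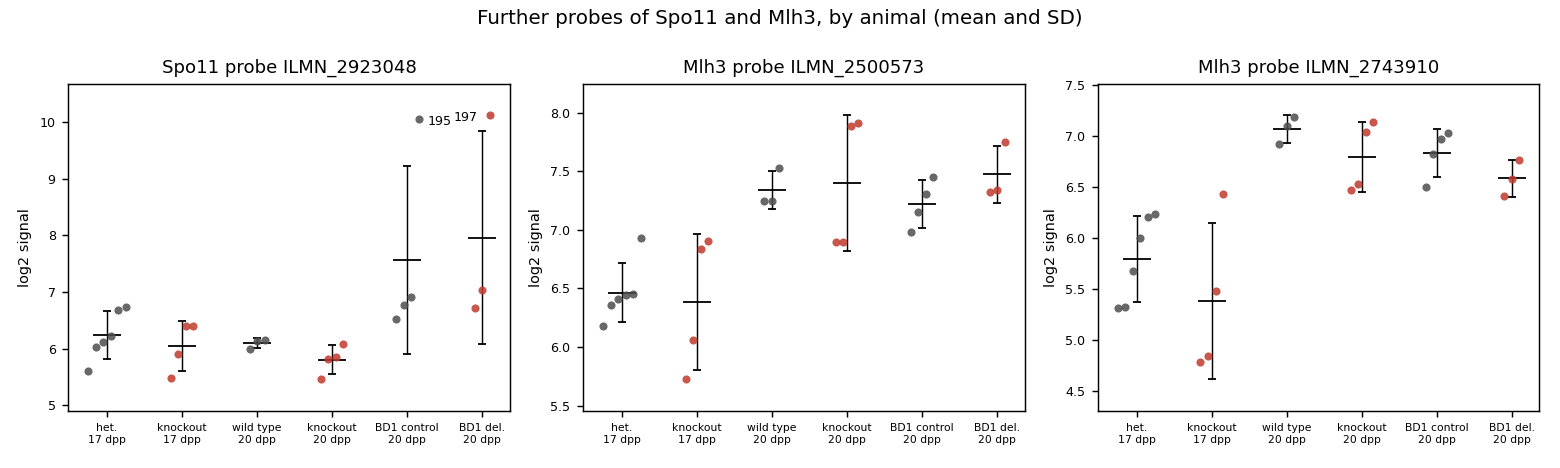
Log2 signal (vertical axis) of the dimmer Spo11 probe and of both dimmer Mlh3 probes in each animal (points) by group (horizontal axis), with the mean and SD in black. Animals 195 and 197 stand at 10.05 and 10.12 on the Spo11 probe, and both Mlh3 probes are higher at 20 dpp than at 17 dpp in the controls of the knockout line.

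Mei1 encodes a vertebrate protein needed for break formation. The table of RefSeq promoters (GRCm38.p6) held an entry for Mei1 and Mlh3, 2 of the 6 genes, whose changes with age ran in opposite directions. For Mei1 the 250 bases before that start site, on the forward strand at chr15:82082226-82082475, are shown in lower case. The start site lies inside the gene as RefSeq draws it, 12402 bases downstream of the gene's first base.
Mei1: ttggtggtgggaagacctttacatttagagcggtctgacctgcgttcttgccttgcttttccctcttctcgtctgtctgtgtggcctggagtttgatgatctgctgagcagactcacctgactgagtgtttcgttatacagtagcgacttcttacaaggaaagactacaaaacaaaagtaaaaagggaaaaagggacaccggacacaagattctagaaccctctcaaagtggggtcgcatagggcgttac
The searched motifs, on both strands, were the cAMP response element TGACGTCA, its core TGACG, the CCAAT box CCAAT, the GC box GGGCGG, the E-box CACGTG, MYB sites TAACNG and CAACNG, and E2F sites TTTCGCGC and TTTGGCGC. TGACG lies inside TGACGTCA, so that both overlap. The Mei1 stretch held none of these letters and therefore no capitals. Among 32851 promoters of the table, 33.8% held CCAAT, 32.7% the GC box, 43.1% a MYB site, 17.8% TGACG, 6.02% the E-box, 1.55% TGACGTCA and 0.654% an E2F site.

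Heterozygous animals at 17 dpp had Mei1 signals from 6.97 to 7.74 with a median of 7.20, and the knockouts 7.10, 6.70, 7.73 and 7.73. These groups overlapped (change 0.06 ± 0.21 SE, adjusted p 0.924 in limma). At 20 dpp the wild types read 6.15, 6.30 and 6.15, and the knockouts 7.34, 6.82, 6.38 and 6.45. The highest knockouts were animals 139 and 140 of litter 2, and the 2 of litter 1 stood just above the wild types. The change of 0.55 ± 0.24 (SE) was not called, with an adjusted p of 0.0548 in limma, and within litter 1 alone it was 0.22. Without animal 148 or 152, both of litter 1, it was called, with adjusted p of 0.0288 and 0.0362 in limma. In the BD1 deletion the difference was 0.19 with a 95% interval from -0.31 to 0.70. Between the controls, Mei1 fell by 1.05 ± 0.23 (SE) from 17 to 20 dpp, a 2.07-fold difference with an adjusted p of 2.8e-04 in limma, and the animals did not overlap. With the controls of the BD1 line, which read 6.50, 6.39, 6.20 and 6.30, Mei1 was also lower, by a log2 change of -0.91.

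Meiob encodes a single-strand DNA binding protein related to the large subunit of replication protein A, and it acts with SPATA22 in strand exchange. The wild types at 20 dpp read 10.67, 10.70 and 10.49. The knockouts of that age read 11.48, 11.64, 11.27 and 11.25, so that all lay above the wild types, those of litter 1 included. Meiob rose by 0.79 ± 0.14 (SE), or 1.73-fold, with an adjusted p of 7.3e-05 in limma. Within litter 1 alone the change was 0.64, with an adjusted p of 0.00457.

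The wild types were low for Meiob against every other group. Heterozygous animals at 17 dpp ranged from 11.20 to 11.41 with a median of 11.31, and knockouts of that age read 11.50, 11.63, 11.03 and 11.42. The controls of the BD1 line at 20 dpp read 11.27, 11.44, 11.26 and 11.37, and the BD1-/- animals 11.24, 11.71 and 11.09. The 2 control groups at 20 dpp thus differed by 0.72 ± 0.14 (SE), with an adjusted p of 0.00557 in limma. Of all genes, 1.05% were called higher and 0.659% lower in that comparison of control groups, and Meiob was the 1 member called. Against the controls of the BD1 line the knockouts differed by 0.08, with an adjusted p of 0.614. In the same way, the fall from 17 to 20 dpp of 0.68 ± 0.13 (SE, adjusted p 6.5e-05 in limma) became a difference of 0.04 (adjusted p 0.753) with the controls of the BD1 line in place of the wild types. The BD1 deletion itself differed from its controls by 0.01, with a 95% interval from -0.27 to 0.29.

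Spata22, whose product binds MEIOB, was not called in the knockout at 20 dpp (0.32 ± 0.21 SE, adjusted p 0.192 in limma). Its group means were 9.02 in wild types and 9.35 in knockouts, and 9.25 in controls of the BD1 line.

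Tex11 encodes an X-linked protein of the crossover-promoting ZMM group, related to Zip4 of yeast. At 17 dpp the heterozygous animals ranged from 10.64 to 11.20 with a median of 10.99, and the knockouts read 10.93, 10.82, 11.17 and 10.91. The groups overlapped, with a difference of -0.01 and a 95% interval from -0.36 to 0.35. At 20 dpp the wild types read 9.37, 9.28 and 9.12, and the knockouts 10.83, 10.49, 9.93 and 10.05. All knockouts lay above the wild types, and the 2 of litter 2 were the highest. Tex11 rose by 1.07 ± 0.20 (SE), or 2.09-fold, with an adjusted p of 2.1e-04 in limma, and by 0.73 within litter 1 alone (adjusted p 0.0117). Against the controls of the BD1 line, which read 9.55, 10.06, 9.39 and 9.34, the knockouts were higher by 0.74 (adjusted p 0.00194 in limma).

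In the controls Tex11 fell by 1.70 ± 0.19 (SE) from 17 to 20 dpp, a 3.26-fold difference with an adjusted p of 1.4e-07 in limma. In the knockouts it fell by 0.63 ± 0.19 (SE) over the same days (adjusted p 0.0177), where 13.3% of all genes were called higher and 13.5% lower. The BD1-/- animals read 10.01, 10.09 and 9.37 and overlapped their controls (change 0.24, 95% interval -0.18 to 0.66).

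Mlh3 encodes a MutL homologue that cuts joint molecules into crossovers. Its promoter entry lies on the reverse strand at chr12:85270600-85270849 and covers the 250 bases before the start site, with the CCAAT box found on its opposite strand in capitals. A further start site of the table lies 8 bases downstream and its promoter holds the same box.
Mlh3: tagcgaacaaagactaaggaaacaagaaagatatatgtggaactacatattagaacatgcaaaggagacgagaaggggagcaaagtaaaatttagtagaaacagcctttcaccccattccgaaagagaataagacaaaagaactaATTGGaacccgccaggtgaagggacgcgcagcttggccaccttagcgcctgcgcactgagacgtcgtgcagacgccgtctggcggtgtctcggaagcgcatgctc
On the brightest of its 3 probes, Mlh3 at 17 dpp ranged from 9.05 to 9.71 in heterozygous animals with a median of 9.59, and stood at 9.29, 9.60, 8.64 and 9.34 in knockouts. The groups overlapped, with animal 122 the lowest (change -0.30 ± 0.17 SE, adjusted p 0.412 in limma). At 20 dpp the wild types read 9.88, 9.79 and 9.89. The knockouts split by litter around them, with 10.31 and 10.22 in litter 1 and 9.69 and 9.69 in litter 2. The change was 0.12 ± 0.20 (SE, adjusted p 0.611 in limma), and 0.41 with litter as a block (adjusted p 0.0275). The BD1-/- animals read 10.11, 9.90 and 10.31 against 10.03, 9.90, 9.49 and 9.86 in their controls (change 0.29, 95% interval -0.12 to 0.70).

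With age, Mlh3 on this probe rose in the knockouts, by 0.76 ± 0.18 (SE, adjusted p 0.00633 in limma). In the controls its difference of 0.34 ± 0.18 (SE) was not called (adjusted p 0.103). The changes with age in knockouts and controls differed by 0.42 ± 0.26 (SE), which was not called either (adjusted p 0.228 in limma). Both dimmer probes of Mlh3 were higher at 20 dpp in the controls, by 0.88 ± 0.25 (SE, adjusted p 0.00381 in limma) on ILMN_2500573 and by 1.27 ± 0.28 (SE, adjusted p 3.5e-04) on ILMN_2743910. In the knockouts these probes rose by 1.02 and 1.41 (adjusted p 0.00674 and 0.00218 in limma). Neither was called in a genotype comparison, and ILMN_2743910 was detected on 4 of 6 arrays of heterozygous animals and on 1 of 6 arrays of knockouts at 17 dpp.

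**Figure D3:**
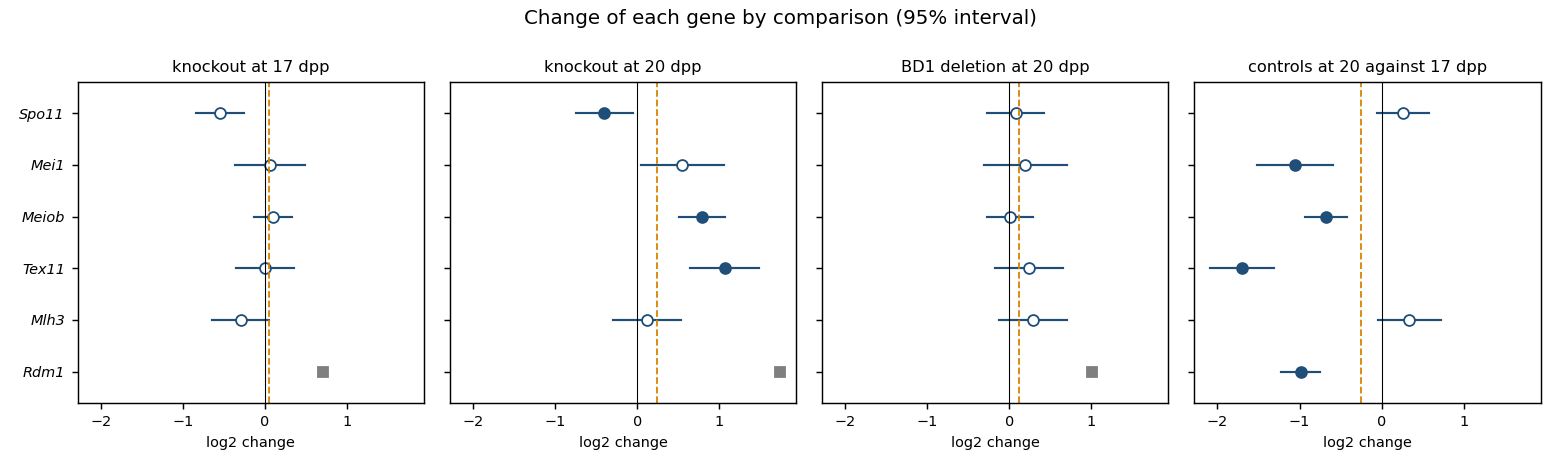
Log2 change of each gene (horizontal axis) in 4 comparisons, with 95% intervals and filled points where called. The median of all genes is a dashed line. Grey squares without an interval mark Rdm1 in the genotype comparisons, whose differences chose it. In the age comparison of controls, the interval and call of Rdm1 are not free of that choice, since these control groups entered it. At 20 dpp in the knockout Tex11 stands at 1.07, Meiob at 0.79 and Spo11 at -0.40.

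Rdm1 encodes a single-strand DNA binding protein with a RAD52 motif, known from work on chicken and human cells for resistance to cisplatin. It has 1 probe. Heterozygous animals at 17 dpp ranged from 8.79 to 9.14 with a median of 8.96, and the knockouts read 9.70, 9.57, 9.50 and 9.996. At 20 dpp the wild types read 7.98, 8.05 and 7.95, and the knockouts 9.86, 9.63, 9.76 and 9.70. The BD1-/- animals read 9.11, 9.26 and 9.05, and their controls 8.30, 8.26, 8.05 and 7.91. In each pair every mutant lay above every control, with log2 differences of 0.71, 1.74 and 1.01, which are the values that chose the gene and carry no test. The knockouts of both litters at 20 dpp were alike, with means of 9.73 in litter 1 and 9.75 in litter 2.

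In the controls Rdm1 fell by 0.99 ± 0.12 (SE) from 17 to 20 dpp, with an adjusted p of 3.2e-07 in limma and no overlap of the animals. Each control group entered the rise that chose the gene, so p-values between control groups are not free of that choice. The knockouts averaged 9.69 (SD 0.22, n = 4) at 17 dpp and 9.74 (SD 0.10, n = 4) at 20 dpp. The control groups at 20 dpp, at 7.99 (SD 0.05, n = 3) and 8.13 (SD 0.18, n = 4), differed by 0.14 with a 95% interval from -0.12 to 0.39 (adjusted p 0.771 in limma). The order of group means was wild types at 20 dpp, controls of the BD1 line, heterozygous animals at 17 dpp, BD1-/- animals, knockouts at 17 dpp and knockouts at 20 dpp. In that order, the wild types and the BD1 line's controls lay closer together than the SD of the wider group, as did both knockout groups.

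Over the 24 animals, the genes whose signal was most like that of Rdm1 were H4c6 (Pearson r 0.96), H4c18 (0.95), Snx17 (0.94), H4c17 (0.94) and Gtf2h3 (0.93). H4c6, H4c18 and H4c17 are genes of histone H4, whose coding sequences are nearly identical, so that their probes may share targets. Their changes in the knockout at 17 dpp, the knockout at 20 dpp and the BD1 deletion were 0.48, 1.47 and 0.98 for H4c6. The same changes were 0.69, 1.67 and 1.05 for H4c18 and 0.89, 1.57 and 1.21 for H4c17. These correlations describe animals of 6 groups, with group differences included.

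The genes most like the other members differed from member to member. Those most like Spo11 were Adam5, Ccdc192, Plaat5, Spata33 and Pgam2 (r 0.94 to 0.95). Adam5, of the ADAM family found on sperm, changed by -2.40 in the knockout at 17 dpp and by -1.56 at 20 dpp, and Spo11 by -0.55 and -0.40. The genes most like Tex11 were Arf2 (r 0.99), Eif2b3, Tro, Atm and Gm773 (all 0.98), and those most like Mei1 were Mapk14, Mocs2, Usp26, Serhl and Ccnt2 (0.94 to 0.95). Meiob had the weakest likeness, with Klhl7 at r 0.88 and Mrps10, 4930447C04Rik, Timm21 and Rwdd4a from 0.83 to 0.86. Those most like Mlh3 were Strbp, Ift80, Ube2b, Lekr1 and Coprs (0.92 to 0.94). Among the members themselves Mei1 and Tex11 had r 0.89, Spo11 and Mlh3 0.75, and Spo11 and Tex11 -0.70.

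The members' counts stand against a background that differs by comparison. In the knockout at 17 dpp, 0.199% of all genes were called higher and 1.14% lower, and 2.95% had groups that did not overlap, against 0 of the 5 members other than Rdm1 in each count of limma (0 higher and 1 lower at an unadjusted p under 0.05, which 15.5% of all genes passed). In the knockout at 20 dpp, 39.4% were called higher, 20.7% lower, and 64.1% did not overlap. There, 2 of the 5 members were called higher, 1 lower, and 4 did not overlap, shares close to those of all genes. In the BD1 deletion 3.23% were called higher, 6.4% lower, and 18.9% did not overlap, against 0 of 5 members in each count (0 also at an unadjusted p under 0.05, which 30.1% of all genes passed). In the controls at 20 against 17 dpp, 25.9% were called higher, 45.5% lower, and 64.7% did not overlap, against 0 higher, 3 lower and 4 not overlapping of the 5 members.

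Differences between effects were tested as such for these 5 members. The knockout effect was larger at 20 than at 17 dpp for Tex11, by 1.07 ± 0.27 (SE, adjusted p 0.0069 in limma), and for Meiob, by 0.69 ± 0.18 (SE, adjusted p 0.00849). Of all genes, 12.4% were called higher and 11% lower in this difference. The BD1 effect was below the knockout effect at 20 dpp for Meiob, by a log2 difference of -0.78 ± 0.19 (SE, adjusted p 0.0425 in limma), where 1.09% of genes were called higher and 0.156% lower. Both Meiob differences use the low wild types described above. Against the controls of the BD1 line the knockouts at 20 dpp differed by 0.08, beside 0.10 for the knockout effect at 17 dpp. The call of the difference between the BD1 and knockout effects ended when any 1 of 10 animals was left out. For Tex11 the difference of -0.83 ± 0.29 (SE) was not called (adjusted p 0.189 in limma).

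Lists of recombination genes place the members in their pathway, for break formation, strand exchange and crossover formation. They hold 73 genes with the 5 members, of which 49 were tested, 13 had no named probe and 11 were detected in under 3 animals. In the knockout at 17 dpp 0 of 49 were called higher and 1 lower, the DNA translocase gene Rad54b (-0.41, adjusted p 0.0475 in limma). Of all genes, 0.199% were called higher and 1.14% lower. At an unadjusted p under 0.05 in limma there were 0 higher and 10 lower of 49, beside 839 higher and 948 lower of all 11529 genes. With both directions pooled, these were 20.4% of the lists and 15.5% of all genes. The median change of the lists was -0.05 beside 0.04 for all genes. The count of lower genes was 0 without any 1 of 7 of the 10 animals, among them animal 122, and 3 without heterozygous animal 121, and it was 9 with litter as a block. In the BD1 deletion 0 of 49 were called in either direction, with a median change of 0.08 beside 0.12 for all genes. Of all genes, 3.23% were called higher and 6.4% lower there. At an unadjusted p under 0.05 the BD1 deletion had 3 higher and 1 lower in limma, 8.16% of the lists beside 30.1% of all genes. Without control animal 191 there were 4 called higher and 1 lower, and without BD1-/- animal 222 1 in each direction. The share of all genes called was not counted in the fits with an animal left out or with litter as a block.

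At 20 dpp in the knockout 15 of 49 rose and 10 fell, with a median of 0.16 beside 0.24 for all genes. Of all genes, 39.4% rose and 20.7% fell there, shares that the lists did not exceed. After centring on that median of all genes, 8 rose and 14 fell, and the share of all genes was not counted for this setting. Without wild type 157 there were 9 higher, and without wild type 149 6 lower. With age in the controls 11 of 49 rose and 18 fell, beside 25.9% and 45.5% of all genes, and without wild type 149 5 rose. The share of all genes was also not counted in the fits with an animal left out.

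**Figure D4:**
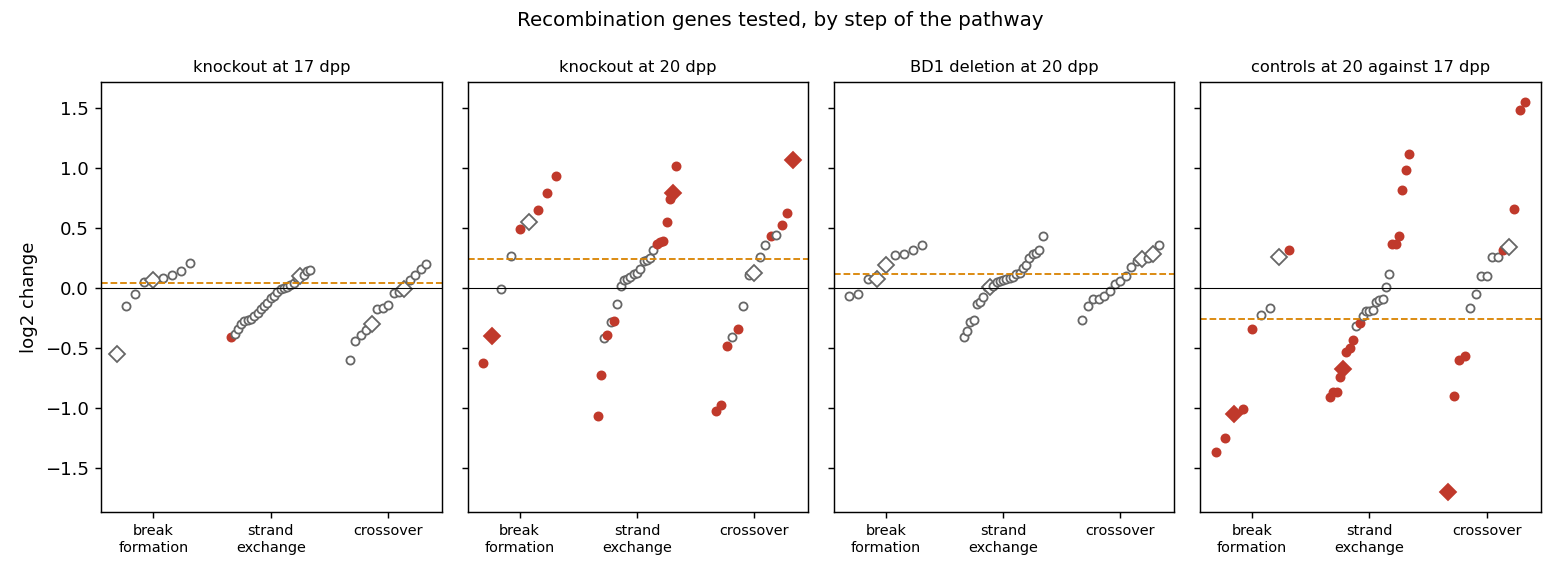
Log2 change (vertical axis) of the 49 tested recombination genes by list (horizontal axis) in 4 comparisons, red where called, diamonds for the members, and a dashed line at the median of all genes. At 20 dpp in the knockout the genes spread from -1.07 (Rpa1) to 1.07 (Tex11).

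Of 9 tested genes of break formation, 4 rose and 2 fell in the knockout at 20 dpp, beside 39.4% and 20.7% of all genes. Atm, the kinase that limits the number of breaks, rose by 0.94 ± 0.16 (SE, adjusted p 9.6e-05 in limma). Rec114, a partner of MEI4 in the break machinery, rose by 0.79 (adjusted p 0.00359), and Zcwpw1, a reader of the histone marks set by PRDM9, by 0.65 (adjusted p 6.3e-04). Hormad2, an axis protein, rose by 0.50 (adjusted p 0.0114). Spo11 and Mre11a were lower, Mre11a, a nuclease subunit of end processing, by -0.63 (adjusted p 2.2e-04 in limma). In the controls from 17 to 20 dpp, Atm (-1.37), Rec114 (-1.25), Mei1 (-1.05), Zcwpw1 (-1.01) and Rad50 (-0.35) fell and Mre11a (0.32) rose.

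Of 25 tested genes of strand exchange, 7 rose and 4 fell in the knockout at 20 dpp, beside 39.4% and 20.7% of all genes. The 4 with the smallest adjusted p among the higher were Rad51ap2 (1.02, adjusted p 1.6e-06 in limma), Meiob, Palb2 (0.55) and Rpa2 (0.74). Those among the lower were Rpa1 (-1.07, adjusted p 1.2e-05), Brme1, listed as 4930432K21Rik (-0.72), Rad51c (-0.27) and Zswim7 (-0.39). Rpa1, Rpa2 and Rpa3 encode the 3 subunits of replication protein A, and they did not move together. In wild types and knockouts at 20 dpp the mean was 13.15 and 12.08 for Rpa1, 9.42 and 10.16 for Rpa2, and 9.84 and 10.22 for Rpa3, which rose by 0.38 (adjusted p 0.0116 in limma). With age in the controls 6 rose and 9 fell, beside 25.9% and 45.5% of all genes. Rpa1 rose by 1.12, 4930432K21Rik by 0.99, Psmc3ip by 0.82 and Rad51ap1 by 0.37. Rad51ap2 (-0.91), Rpa2 (-0.87), Palb2 (-0.86) and Rpa3 (-0.74) fell.

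Of 15 tested genes of crossover formation, 4 rose and 4 fell in the knockout at 20 dpp, beside 39.4% and 20.7% of all genes. Beside Tex11, Pms2 (0.63), Fancm (0.52) and Msh5 (0.44), which encode a MutL protein, a helicase and a MutS protein, were higher. Prr19 (-1.03, adjusted p 9.5e-04 in limma), whose product acts with CNTD1 in crossover designation, was lower, as were Slx4 (-0.98), Rtel1 (-0.49) and Mus81 (-0.34). SLX4 is a scaffold for structure-specific nucleases, of which MUS81 is one. With age in the controls Slx4 (1.55), Prr19 (1.49), Cntd1 (0.66) and Mus81 (0.31) rose, and Tex11, Pms2 (-0.90), Fancm (-0.60) and Exo1 (-0.57) fell. The knockout comparison at 20 dpp and the age comparison share the wild types, so that their values are only set side by side.

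Markers of other cells in the testis moved in the knockout at 20 dpp, where 39.4% of all genes were called higher and 20.7% lower. All 6 tested round spermatid markers were lower in the knockout at 20 dpp, with a mean log2 level per animal from 5.70 to 6.03 against 8.56 to 9.94 in wild types. This level was 5.99 to 6.16 in BD1-/- animals and 7.02 to 9.82 in their controls. Acrv1, Prm1 and Catsper1 were detected on no array of knockouts at 20 dpp, and these and Tnp1 on none of BD1-/- animals. Pachytene and diplotene markers were lower for 5 of 8 in the knockout at 20 dpp, with levels from 11.45 to 12.45 against 13.43 to 13.64. Those of early meiotic prophase were higher for 2 of 7 and lower for 2 of 7. Spermatogonial markers were higher for 6 of 7 (7.63 to 8.12 against 7.05 to 7.31), Sertoli cell markers for 5 of 6 (9.90 to 10.04 against 9.22 to 9.49), macrophage markers for 4 of 4 and Leydig cell markers for 2 of 4. At 17 dpp 1 of 8 pachytene markers and 1 of 7 early prophase markers were lower in the knockout, where 1.14% of all genes were called lower. The part of these cell types in the changes of the recombination genes was not tested.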

How the data were processed

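RNA of whole testis was hybridised to single-colour bead arrays. What the authors deposited is a linear intensity per probe, not normalized between arrays, beside the p-value of detection that accompanies it in the deposited file. GenomeStudio 2011.1 is the tool listed in the submitters' notes. Their processed intensity matrix served as an alternative. Its array medians lay between 133.8 and 133.9 units, and each of 36 arrays correlated at r 1 with the raw signals after quantile normalization, so its scale is linear. The number of animals and litters limits precision.

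Signals were background-corrected by normexp from the detection p-values (offset 16), quantile-normalized and logged with neqc of limma 3.58.1 in R 4.3.3 (statmod 1.5.0). Arrays sharing mouse number, litter and testis weight were averaged as 1 animal. Littermates share a litter, so p-values measure only the spread between these animals. Probes with a detection p under 0.01 on all arrays of at least 3 animals were kept (21190), and the brightest represented its gene (11529 genes). A linear model over all 6 groups used lmFit and eBayes with an intensity trend. Further probes were tested over all 21190 probes. The fit was tested on simulated data. Symbols came from the platform annotation (34885 probes with 1 symbol, 18 with several, 10378 with none), updated through RefSeq (GRCm38.p6).

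The members and gene lists were chosen with earlier results of these data known. Named are all members, the called genes of each list (where over 8 were called, the 4 with the smallest adjusted p each way), and the 5 genes most correlated with each member. Spata22, Rpa3 in the knockout, single marker genes and the probes most like the dimmer Spo11 probe were named after their values were seen. Alternatives covered normalization, filters, probe averaging, centring, litter, arrays as units, the groups fitted, the trend, brightness and each animal left out. Replicate numbers of the labels count arrays, not animals, and were not used as pairs in the main fit.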

Additional observations from a re-analysis of the deposited data

Results flagged for a closer look

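Single animals that stood apart were sought for each gene in each group of 4 or more animals, 24 groups of values on the brightest probes and 12 on the further probes, where chance sets apart about 1 group in 20. Spo11 in the knockouts at 17 dpp had animal 122 at 10.87, with the nearest animal at 11.53. On the dimmer Spo11 probe ILMN_2923048, control animal 195 of the BD1 line read 10.05, with the nearest control at 6.91. On the Mlh3 probe ILMN_2500573, heterozygous animal 127 at 17 dpp read 6.93, with the nearest at 6.46.

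The effect of the knockout differed between the ages for Tex11, by 1.07 (adjusted p 0.0069 in limma), and for Meiob, by 0.69 (adjusted p 0.00849). For Meiob the effects of the BD1 deletion and of the knockout at 20 dpp differed by -0.78 (adjusted p 0.0425 in limma). Both Meiob differences use the wild types at 20 dpp, which were low for Meiob against every other group. The causes were not tested.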

How the results depend on the processing

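Calls among the 49 recombination genes were recounted under each alternative. The share of all genes called was not counted under these alternatives, so a changed count cannot be read as particular to the recombination genes. In the knockout at 17 dpp the 1 lower call became 0 with the authors' matrix, without background correction, without the detection filter, with the mean of a gene's probes, with the 2 groups alone and without the intensity trend. It became 2 with brightness as a covariate, 3 with arrays in place of animals (the animal as a random block), 4 after centring and 9 with litter as a block, which also gave 1 higher. Leaving out 1 animal gave 0 to 3. In the knockout at 20 dpp the 15 higher calls became 8 after centring and ranged from 9 to 16 without 1 animal, and the lower calls from 6 to 9. In the BD1 deletion litter as a block gave 1 higher and 2 lower, arrays in place of animals 1 and 1, and wild-type controls alone 4 and 1. Leaving out 1 animal gave 0 to 4 higher and 0 to 1 lower. From 17 to 20 dpp the 11 higher calls became 17 after centring and ranged from 5 to 12 without 1 animal.

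Meiob changed sign once, to 0.0413 from 17 to 20 dpp with the controls of the BD1 line, an alternative chosen after seeing the data. Its difference between the BD1 and knockout effects lost its call in 8 of 12 settings. Spo11 in the knockout at 20 dpp lost its call in 4 of 14, and at 17 dpp it gained one in 5 of 12. Tex11 in the knockout at 20 dpp kept its call in 14 of 14, from 0.73 to 1.11. These settings overlap, since the authors' matrix and the fit without background correction have nearly the same values. For the knockout at 20 dpp, litter as a block and litter 1 alone compare the same animals. The causes were not tested. The median change of all genes in the knockout at 20 dpp was 0.24, and 0.14 with the authors' matrix. From 17 to 20 dpp it was -0.25 and -0.14.

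Arrays with the same replicate number in both groups of a genotype comparison had correlations from -0.15 to 0.66. A fit with replicate block on arrays gave 0 higher and 3 lower calls in the knockout at 17 dpp, 17 and 11 at 20 dpp, 3 and 1 in the BD1 deletion, and 12 and 19 with age. These are counts of recombination genes, and the share of all genes called was not counted in that fit. Arrays correlated best with their own number in 3 of 6 pairs in the knockout at 17 dpp and in 2 of 6 at 20 dpp. In the BD1 deletion this held for 5 of 6 pairs, and the cause was not tested. Litter as a block could not be fitted for age, since each litter has 1 age. Signal over background limits the Mlh3 probes ILMN_2743910 and ILMN_2500573 and the Spo11 probe ILMN_2923048, which were not detected on all arrays. Of these, ILMN_2500573 was missed only among knockouts at 17 dpp, where 5 of 6 arrays detected it.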

Other observations

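The 4 knockouts at 20 dpp came from 2 litters, and several members differed between them, as values with no test. Litter 1 averaged 9.99 for Tex11, 6.42 for Mei1 and 10.26 for Mlh3, and litter 2 averaged 10.66, 7.08 and 9.69. Spo11 averaged 11.91 and 11.74 and Meiob 11.26 and 11.56. Both arrays of an animal differed by a median of 0.28 for Tex11, 0.13 for Mei1 and 0.20 for Mlh3 over 12 animals, and by at most 0.64, 0.48 and 0.41. In the wild types Tex11 was higher on the second array (9.69, 9.52 and 9.35 against 9.05, 9.04 and 8.89), and Mlh3 was lower on it. For Tex11 knockout 148 read 9.98 and 9.88, and knockout 152 read 9.80 and 10.29. Knockouts of litter 2 had 1 array each and those of litter 1 had 2, so litter and array set cannot be told apart. The testes of litter 1 weighed 0.0213 g and 0.0215 g, and those of litter 2 0.0180 g and 0.0212 g.

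Over all tested probes and 24 animals, the dimmer Spo11 probe ILMN_2923048 was most like a probe of Gm29679 on chromosome 2 (Pearson r 0.78), followed by Ndufb10, C6, an unnamed probe and Mapk8 (0.69 to 0.73). Gm29679 read 7.45 in animal 195 and 5.85 in animal 197, and from 4.37 to 6.33 in the other 22 animals. Ndufb10 (9.39 and 9.56 against at most 9.37) and the unnamed probe (13.15 and 13.69 against at most 13.10) also had both animals above the other 22, by smaller margins than the Spo11 probe (10.05 and 10.12 against at most 7.04).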
